A study of Mus musculus with 9 samples.

Results

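The axon guidance ligands and receptors were the 67 genes, of 27497 in the deposited table, whose symbol names a semaphorin of classes 3 to 7, a plexin, a neuropilin, an Eph receptor, an ephrin, a Slit, a Robo, a netrin, an Unc5 receptor or Dcc. They were taken by symbol alone, without use of their values. Poly(A)-selected RNA from the olfactory bulb was sequenced for 9 adult C57/BL6 mice, 6 to 8 weeks old or older, with 3 mice per group. The clean air group was kept in air cleaned by a carbon filter, the 30 min group was killed right after 30 min of an odorant mixture, and the 120 min group had the same 30 min of odor and a further 90 min of clean air. The labels give no genetic change and name no drug. Bulk RNA of dissected bulbs was used, so for every gene below fewer cells of a type and less RNA per cell cannot be told apart.

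Guidance cues are secreted or membrane-bound proteins that attract or repel growing axons through receptors on the growth cone. Semaphorins act through plexins, with neuropilins as co-receptors for most of the class 3 members, ephrins act through Eph receptor tyrosine kinases, Slits act through Robo receptors, and netrins act through Dcc and the Unc5 receptors. In the olfactory system these pairs are known for sorting the axons of olfactory sensory neurons into glomeruli and for guiding the neuroblasts that reach the adult bulb through the rostral migratory stream. New sensory axons and new interneurons continue to arrive in the adult bulb.

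The adult bulb held RNA of nearly the whole repertoire. Of the 67 genes, 65 reached 1 RPKM (mapped reads scaled by gene length and library depth) on average over the 9 mice, and 24 of these reached 10 RPKM. The ephrin gene Efna4 and the receptor gene Epha1 were below 1 RPKM, and no gene was listed at 0 in any mouse. The median of the 67 means was 5.18 RPKM, beside 9.93 RPKM over the 12780 genes of the table that reached this mean, which were the genes tested. The plot of all levels by role shows a range of single values from 0.21 RPKM for Epha1 to 103.79 RPKM for Sema6b. No guidance gene passed the test in any comparison after adjustment over all tested genes, so the differences below are given as values.

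**Figure D1:**
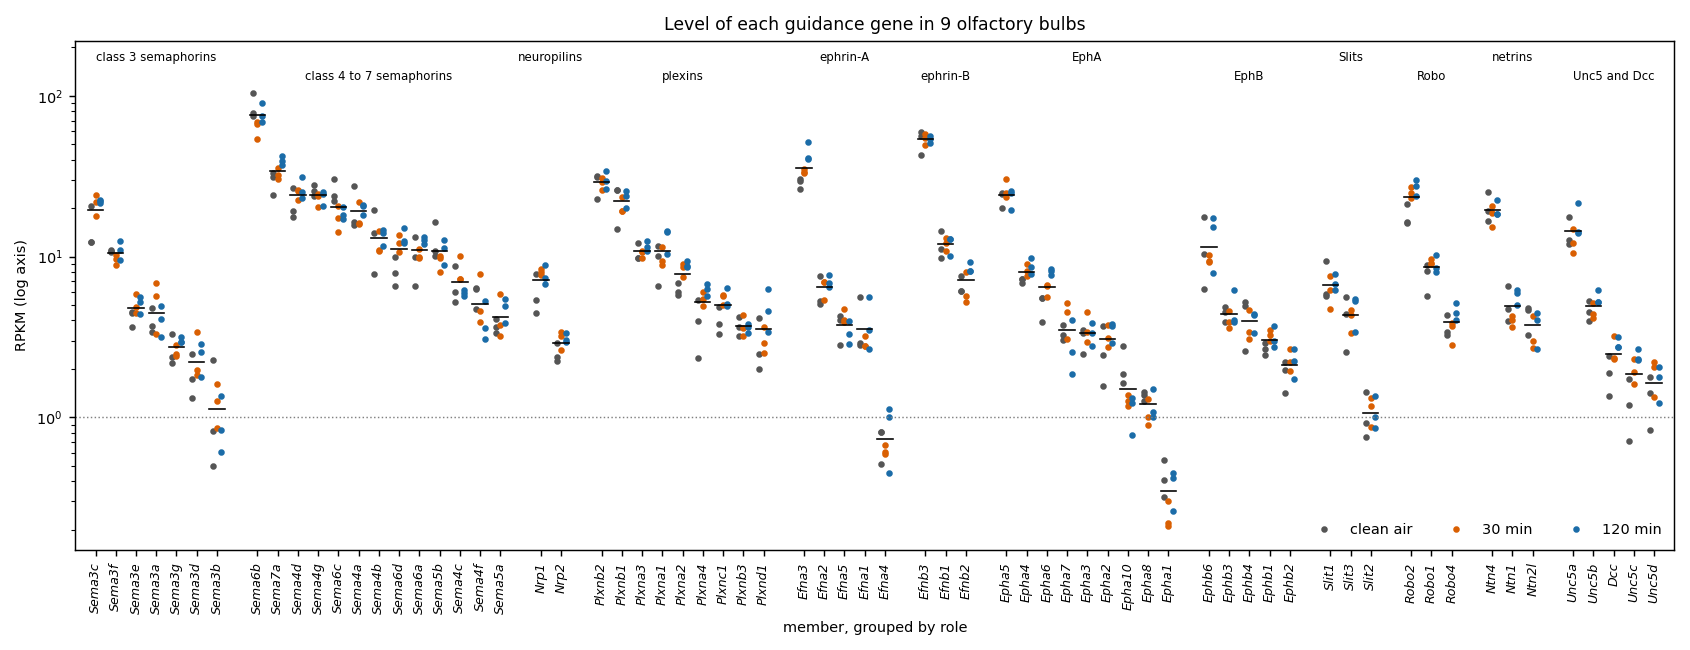
RPKM (log axis) of the 67 guidance genes in 9 mice, grouped by role and ordered by mean level, where points are single mice in clean air, at 30 min and at 120 min, black bars are means over the 9 mice and the dotted line is 1 RPKM. In most roles 1 or a few genes stand well above the others, such as Efnb3, Efna3, Ntn4 and Unc5a.

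Depth recovered from the spacing of low RPKM values was 7153000 to 29880000 counted reads per mouse, and 3 reads on a transcript of 1 kb corresponded to 0.1 to 0.419 RPKM. Abundant markers fit the labelled tissue: Omp of olfactory sensory neuron axons had 62.28 to 112.55 RPKM, Pcdh21 of mitral and tufted cells 86.75 to 178.66 RPKM, and Gad1 of GABAergic interneurons 279.79 to 521.47 RPKM. Not all markers were abundant: Cnga2, also listed for sensory neuron axons, had 0.1 to 0.76 RPKM. Clean air mouse 2 held the lowest of the 3 clean air values for 41 of the 65 tested guidance genes, a share of 63.1% beside 34.4% of all tested genes. Most counts and medians in comparisons with clean air, and the differences of the main named genes, are therefore also given without that mouse. This choice was made after its values were seen, and the cell type markers are given only with it. Mouse 2 of each exposed group also held its group's lowest value most often. The shares of guidance genes were 46.2% at 30 min and 47.7% at 120 min, beside 36.2% and 34.8% of all tested genes. These exposed mice were kept when clean air mouse 2 was left out, which can lower the differences from clean air.

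Among the semaphorins, Sema6b, which encodes a transmembrane class 6 semaphorin, had the highest level of all 67 genes, with a mean of 75.5 RPKM. It had 74.92, 77.92 and 103.79 RPKM in the clean air mice, 68.53, 53.75 and 66.45 RPKM at 30 min and 74.33, 69.02 and 90.44 RPKM at 120 min. The 30 min mice lay below all clean air mice, and the 120 min mice overlapped clean air. At 30 min the log2 difference from clean air was -0.43 ± 0.18 (estimate ± SE, on log2(RPKM + 0.5); limma unadjusted p = 0.0372, adjusted p = 0.818). Its relative Sema6c had 22.01, 30.22 and 23.81 RPKM with clean air, 17.48, 14.22 and 20.7 RPKM at 30 min and 18.13, 17.03 and 20.3 RPKM at 120 min. All 6 exposed mice were below all 3 clean air mice. The log2 differences of Sema6c were -0.53 ± 0.18 at 30 min (adjusted p = 0.79) and -0.44 ± 0.18 at 120 min (adjusted p = 0.494), and without clean air mouse 2 they were -0.40 ± 0.19 and -0.30 ± 0.19.

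Sema6d, another transmembrane class 6 semaphorin, had the opposite order. Its values were 9.88, 6.59 and 7.93 RPKM with clean air, 12.13, 13.52 and 10.64 RPKM at 30 min and 15.08, 12.21 and 12.56 RPKM at 120 min, with every exposed mouse above every clean air mouse. The log2 differences were 0.56 ± 0.19 at 30 min and 0.69 ± 0.19 at 120 min, a fold of 1.61 (adjusted p = 0.751 and 0.339). Sema7a, whose protein is tethered to the membrane by a lipid anchor, was the second most abundant semaphorin gene, with 31.07, 24.15 and 32.87 RPKM with clean air, 35.5, 32.3 and 30.54 RPKM at 30 min and 37.19, 39.51 and 42.17 RPKM at 120 min. The 120 min mice were above all other mice, with a log2 difference from clean air of 0.44 ± 0.16 (adjusted p = 0.425), or 0.30 ± 0.15 without clean air mouse 2. The next genes in order, Sema4d and Sema4g with means of 24.1 and 24 RPKM, overlapped each other, and the 7 members of classes 4 to 7 not yet named had means from 4.22 RPKM (Sema5a) to 19.3 RPKM (Sema4a).

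The class 3 semaphorins, which are secreted, were led by Sema3c, which took 43.1% of their summed level. Sema3c had 20.74, 12.35 and 12.39 RPKM with clean air, 17.8, 24.12 and 21.87 RPKM at 30 min and 22.46, 22.31 and 21.56 RPKM at 120 min. Clean air mouse 1 overlapped the 30 min mice, while the 120 min mice were close together and above clean air. The log2 differences were 0.51 ± 0.21 and 0.57 ± 0.21 (adjusted p = 0.818 and 0.437), or 0.38 ± 0.23 and 0.45 ± 0.23 without clean air mouse 2. Sema3f, a repellent cue bound by neuropilin 2, followed with a mean of 10.5 RPKM and a narrow clean air range of 10.65 to 10.96 RPKM. Sema3a, the classic repellent bound by neuropilin 1, had a mean of 4.43 RPKM, and Sema3b was lowest with 0.5 to 2.27 RPKM over the 9 mice.

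Nrp1, the co-receptor gene for Sema3a, had a mean of 7.17 RPKM and Nrp2 of 2.89 RPKM, and the lowest Nrp1 value was above the highest Nrp2 value. Nrp1 had 7.84, 4.46 and 5.35 RPKM with clean air, 7.98, 7.66 and 8.31 RPKM at 30 min and 8.91, 7.34 and 6.71 RPKM at 120 min. Clean air mouse 1 lay within the range of the exposed mice and the other clean air mice below it. The log2 difference of Nrp1 at 30 min was 0.44 ± 0.21 (adjusted p = 0.828), or 0.28 ± 0.21 without clean air mouse 2.

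Plexins, the signalling receptors of semaphorins, were led by the class B genes. Plxnb2 had 31.68, 22.77 and 31.03 RPKM with clean air, 29.19, 25.91 and 30.71 RPKM at 30 min and 29.55, 26.2 and 33.83 RPKM at 120 min, so the groups overlapped, with log2 differences of 0.02 ± 0.17 and 0.07 ± 0.17. Plxnb1 followed with a mean of 22 RPKM and overlapped the lower Plxnb2 values. Plxna3 and Plxna1 were next with means of 10.9 and 10.8 RPKM and did not differ beyond their spread, and Plxnb3 and Plxnd1 were lowest with 3.67 and 3.55 RPKM. Plxna2, a receptor for class 6 semaphorins, had 6.88, 5.99 and 5.78 RPKM with clean air, 8.57, 9.03 and 7.46 RPKM at 30 min and 9.36, 8.74 and 8.64 RPKM at 120 min, with all exposed mice above all clean air mice. Its log2 differences were 0.40 ± 0.16 and 0.49 ± 0.16 (adjusted p = 0.818 and 0.367). Plxnd1, a receptor gene known from blood vessels, had 4.16, 2.01 and 2.47 RPKM with clean air, 3.63, 2.89 and 2.5 RPKM at 30 min and 4.61, 3.39 and 6.28 RPKM at 120 min. All groups overlapped, and the log2 difference between the exposed groups was 0.56 ± 0.29 (adjusted p = 0.999), or 0.36 without 120 min mouse 3.

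The ephrins were dominated by a single gene in each class. Efnb3, a transmembrane ephrin, took 73.8% of the summed ephrin-B level, with 59.41, 56.5 and 42.84 RPKM with clean air, 57.88, 54.99 and 49.13 RPKM at 30 min and 50.99, 54.17 and 55.96 RPKM at 120 min. The 3 groups overlapped, and the log2 differences from clean air were 0.04 ± 0.16 and 0.03 ± 0.16. Efna3, a lipid-anchored ephrin, took 71.1% of the summed ephrin-A level and had the smallest p of the guidance genes at 120 min. It had 30.34, 26.43 and 29.36 RPKM with clean air, 35.03, 33.05 and 33.72 RPKM at 30 min and 41.05, 40.38 and 51.79 RPKM at 120 min. The 3 groups did not overlap in any pair: every 30 min mouse was above clean air, and every 120 min mouse above 30 min.

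The log2 difference of Efna3 from clean air was 0.24 ± 0.15 at 30 min and 0.61 ± 0.15 at 120 min, a fold of 1.53 (unadjusted p = 0.00179, adjusted p = 0.339). From 30 to 120 min it was 0.37 ± 0.15 (adjusted p = 0.999). Efnb2, which marks arteries and some neurons, had 6.09, 7.54 and 6.14 RPKM with clean air, 7.96, 5.25 and 5.68 RPKM at 30 min and 9.31, 8.12 and 8.18 RPKM at 120 min. The 120 min mice were above the others, with a log2 difference from 30 min of 0.43 ± 0.19 (adjusted p = 0.999).

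Efna1, Efna3 and Efna4 are next to one another among the protein-coding genes of chromosome 3 in the RefSeq annotation of GRCm38.p6. Their mean levels were 3.53, 35.7 and 0.731 RPKM, a ratio of 48.8 between the neighbours Efna3 and Efna4. The promoter windows of this pair, neighbours with unlike levels, are shown, and that of Sema6b as the most abundant guidance gene. Each is from RefSeq (GRCm38.p6), runs from 250 bases before to 50 after a listed start, and is on the minus strand at chr3:89322890-89323189 (Efna3, the first of its listed starts), chr3:89337979-89338278 (Efna4) and chr17:56140294-56140593 (Sema6b, the first of its listed starts). Capitals mark matches, on either strand, to GCGNGGGCG, a core of the sites bound by EGR factors.
Efna3: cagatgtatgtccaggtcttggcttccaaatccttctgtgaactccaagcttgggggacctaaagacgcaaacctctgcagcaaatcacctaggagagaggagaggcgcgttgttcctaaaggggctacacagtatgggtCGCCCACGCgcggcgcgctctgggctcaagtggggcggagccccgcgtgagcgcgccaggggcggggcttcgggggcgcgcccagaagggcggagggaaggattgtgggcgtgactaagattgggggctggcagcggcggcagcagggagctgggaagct
Efna4: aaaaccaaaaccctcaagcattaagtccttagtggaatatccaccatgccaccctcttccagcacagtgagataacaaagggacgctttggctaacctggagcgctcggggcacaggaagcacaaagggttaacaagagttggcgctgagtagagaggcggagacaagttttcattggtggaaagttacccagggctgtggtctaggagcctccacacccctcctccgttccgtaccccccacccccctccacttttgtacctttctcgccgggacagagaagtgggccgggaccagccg
Sema6b: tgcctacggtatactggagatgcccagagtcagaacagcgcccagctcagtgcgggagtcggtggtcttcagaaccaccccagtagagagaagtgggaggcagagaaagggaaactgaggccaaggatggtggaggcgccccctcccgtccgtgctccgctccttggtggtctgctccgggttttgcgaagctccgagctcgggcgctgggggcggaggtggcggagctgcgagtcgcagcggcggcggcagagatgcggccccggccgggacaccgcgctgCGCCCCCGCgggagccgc

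Promoter windows were listed for 57 of the 67 genes, 73 windows in all. The EGR core was in the windows of 14 genes, 19.2% of the windows, beside 5.55% of all 32851 windows of that length and 11.2% of the 9734 windows of tested genes with a symbol. The letters TGACGTCA, bound by CREB, were in 1.37% of the guidance windows (Epha2) beside 2.86% for tested genes, and TGANTCA, bound by AP-1, in 4.11% beside 4.86%. These searches were made on both strands, and the letters of the motifs do not allow a match of one to overlap a match of another. The EGR core was in the shown window of Efna3 and was not in the window of its second listed start nor in that of Efna4. It was in the shown window of Sema6b and not in that of its second listed start, which held an AP-1 match. The listed windows of Robo2 held no match to any of these motifs. These counts describe letters and not binding.

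Among EphA receptors, tyrosine kinases that bind ephrin-A proteins, Epha5 was highest and took 46.8% of the summed level. It had 24.69, 24.55 and 20.01 RPKM with clean air, 24.8, 30.2 and 23.39 RPKM at 30 min and 25.52, 24.86 and 19.42 RPKM at 120 min, with overlapping groups. Epha4 and Epha6 followed with means of 8.04 and 6.45 RPKM and overlapped each other. Epha6 had 5.55, 3.94 and 5.54 RPKM with clean air, 5.56, 6.6 and 6.69 RPKM at 30 min and 8.09, 7.68 and 8.36 RPKM at 120 min, and its 3 groups did not overlap, although the lowest 30 min value was next to the highest clean air value. The log2 difference at 120 min was 0.65 ± 0.18, a fold of 1.57 (unadjusted p = 0.00487, adjusted p = 0.342).

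Epha7, a receptor gene with 3.76, 3.27 and 3.01 RPKM in clean air, had 3.09, 5.15 and 4.53 RPKM at 30 min and 2.53, 4.01 and 1.86 RPKM at 120 min. The later group was lower on average and overlapped the earlier, with a log2 difference of -0.55 ± 0.27 (adjusted p = 0.999), or -0.34 without 120 min mouse 3. Epha10, whose protein lacks kinase activity, had 1.85, 1.63 and 2.79 RPKM in clean air and 0.78 to 1.38 RPKM in the 6 exposed mice, below all clean air mice. Its log2 difference at 120 min was -0.68 ± 0.27 (adjusted p = 0.462), or -0.81 ± 0.30 without clean air mouse 2. Epha1 had 0.21 to 0.54 RPKM, and in the later GENCODE M21 annotation its exons overlap those of Zyx, on the opposite strand, which had a mean of 61 RPKM. The sources used here do not state whether strand was used in counting, so their reads cannot be told apart. Ephb4, Plxnb1 and Unc5a also overlap a gene of the table on the opposite strand, each with a mean of 1.33 RPKM or less. In all, 16 guidance genes overlap another gene in that annotation, and most of the other genes are not in the table. Among them are genes on the opposite strand of Efna3, Epha6, Epha10, Unc5c and Plxna4. Their levels are unknown, so the same limit holds there.

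EphB receptors bind ephrin-B proteins. Ephb6, another kinase-inactive member, was highest, with 10.32, 6.24 and 17.53 RPKM with clean air, 9.33, 9.19 and 10.23 RPKM at 30 min and 15.17, 7.89 and 17.25 RPKM at 120 min. Its spread within clean air (11.4 ± 5.72 RPKM, SD, n = 3) was wider than any difference between group means. The other 4 EphB genes had means of 2.12 to 4.39 RPKM.

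Slits are secreted repellents. Slit1 had 5.67, 5.83 and 9.37 RPKM with clean air, 7.58, 6.23 and 4.73 RPKM at 30 min and 6.73, 6.23 and 7.73 RPKM at 120 min, with overlapping groups and log2 differences of -0.15 ± 0.24 and 0.02 ± 0.24. Slit3 and Slit2 had means of 4.33 and 1.07 RPKM. Of their receptors, Robo2 had a mean of 23.4 RPKM, 2.74 times that of Robo1, its neighbour on the chromosome, and Robo4, known from endothelial cells, had 3.89 RPKM. Robo2 had 21.35, 16.27 and 16.32 RPKM with clean air, 24.95, 27.09 and 23.21 RPKM at 30 min and 27.47, 30.02 and 23.94 RPKM at 120 min. All 6 exposed mice were above all clean air mice. The log2 differences were 0.48 ± 0.16 at 30 min, a fold of 1.39, and 0.59 ± 0.16 at 120 min, a fold of 1.5 (adjusted p = 0.79 and 0.342).

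Netrins were led by Ntn4, a netrin of basement membranes, with 25.31, 16.66 and 19.33 RPKM with clean air, 18.62, 15.28 and 20.51 RPKM at 30 min and 18.32, 18.38 and 22.41 RPKM at 120 min. The groups overlapped, with log2 differences of -0.16 ± 0.19 and -0.04 ± 0.19. Ntn1, the classic axon attractant, had 6.56, 3.95 and 4.73 RPKM with clean air, 4.27, 3.62 and 4.03 RPKM at 30 min and 6.17, 5.01 and 5.97 RPKM at 120 min. The 120 min mice were above the 30 min mice and overlapped clean air, and the log2 difference between the time points was 0.47 ± 0.21 (adjusted p = 0.999). Ntn2l, an older symbol of Ntn3, had a mean of 3.75 RPKM.

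The netrin receptor genes were led by Unc5a, of the repulsive Unc5 family, with 12, 12.65 and 17.67 RPKM with clean air, 14.87, 12.22 and 10.45 RPKM at 30 min and 14.23, 14.06 and 21.63 RPKM at 120 min. Its groups overlapped, and its log2 differences were -0.16 ± 0.23 and 0.22 ± 0.23. Dcc, the attractive netrin receptor, had a mean of 2.46 RPKM. Unc5c had 1.74, 0.71 and 1.19 RPKM with clean air, 2.29, 1.61 and 1.92 RPKM at 30 min and 2.65, 2.32 and 2.27 RPKM at 120 min. The 120 min mice were above clean air, the 30 min mice overlapped it through clean air mouse 1, and the log2 difference at 120 min was 0.81 ± 0.27, a fold of 1.75 (adjusted p = 0.379). It was 0.58 ± 0.26 without clean air mouse 2.

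**Figure D2:**
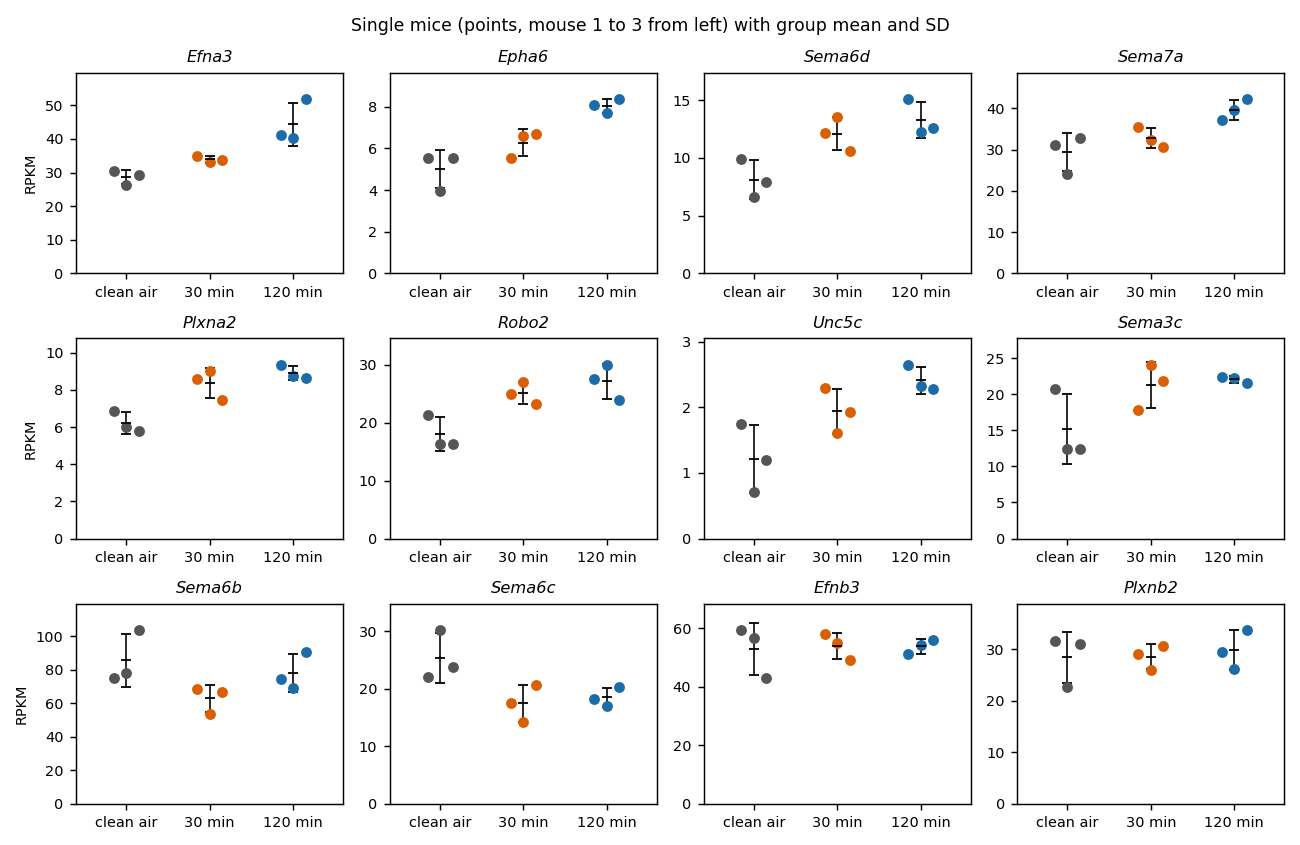
RPKM of 12 guidance genes in single mice (points, mouse 1 to 3 from left to right) by group, with the group mean and SD (n = 3 mice). Efna3, Epha6, Sema6d, Plxna2 and Robo2 have every exposed mouse above clean air, Sema6c has every exposed mouse below it, and Efnb3 and Plxnb2 overlap in all groups.

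After 30 min of odor, none of the 65 tested guidance genes passed (limma, Benjamini-Hochberg adjusted p under 0.05), beside 0.141% of all tested genes. Their smallest adjusted p was 0.751. Of them, 6 (9.23%) had an unadjusted p under 0.05, as did 5.92% of all tested genes: Sema6d, Robo2, Plxna2 and Sema3c had higher and Sema6c and Sema6b lower means than clean air. Groups did not overlap for 9 genes (13.8%) with higher 30 min values, where 7.29% of all tested genes had this, and for 5 (7.69%) with lower values, where 4.08% had. The lower ones were the semaphorin genes Sema3f, Sema5b, Sema6b and Sema6c, and Epha10. The median log2 difference was 0.1 over the guidance genes and 0.08 over all tested genes, and 40 of 65 differences were above 0 (61.5%, and 61.8% of all tested genes). No guidance gene reached a fitted 1.5-fold difference, which 5.74% of all tested genes did. Without clean air mouse 2, only Robo2 and Sema6b had an unadjusted p under 0.05 (limma), as did 7.26% of all tested genes. The median was then 0.02, below the 0.08 of all tested genes, and 33 of 65 differences were above 0. Groups then did not overlap for 10 higher and 11 lower genes, where 15.8% and 9.89% of all tested genes had this. With 30 min mouse 2 left out, 0 guidance genes had an unadjusted p under 0.05 (limma), and with clean air mouse 1 left out 10 had. Over all alternative fits described below, 391 to 1396 of all tested genes had such a p, against 756 in the main fit. A change in the guidance genes thus cannot be set apart from one in all genes. The median over the guidance genes was 0.01 without 30 min mouse 1, 0.06 without 30 min mouse 2 and 0.15 without 30 min mouse 3.

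At 120 min, in a comparison that shares the clean air mice with the former, again none passed, beside 0.0861% of all tested genes, and the smallest adjusted p was 0.339, that of Efna3 and Sema6d. Here 12 genes (18.5%) had an unadjusted p under 0.05, as did 9.57% of all tested genes. The 10 with higher means were Efna3, Sema6d, Robo2, Epha6, Plxna2, Unc5c, Sema7a, Sema3c, Plxna4 and Plxnd1, and the lower ones were Epha10 and Sema6c. Groups did not overlap for 14 genes with higher values (21.5%), where 7.86% of all tested genes had this, and for Epha10 and Sema6c with lower values (3.08%), where 5.27% had. The median log2 difference was 0.19 over the guidance genes and 0.03 over all tested genes, and 50 of the 65 differences were above 0 (76.9%, and 53.9% of all tested genes). A fitted difference of 1.5-fold or more was reached by 8 genes, or 12.3%, where 8.33% of all tested genes reached it. Of these genes 7 were higher and 1 was lower than clean air. Without clean air mouse 2 none of the higher genes reached 1.5-fold, and the largest log2 rise was 0.58, that of Unc5c. Only Epha10 (-0.81) and Sema4f (-0.64), both lower, were then beyond 1.5-fold.

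Without clean air mouse 2 fewer guidance genes had an unadjusted p under 0.05. Leaving out a mouse cannot lower the number of genes whose groups do not overlap. This number rose for the guidance genes, as did the shares over all tested genes. The median over the guidance genes at 120 min was then 0.08, beside 0.04 over all tested genes, and 39 of 65 differences were above 0. Those with an unadjusted p under 0.05 were then 6 genes, Efna3, Epha6, Epha10, Plxna2, Robo2 and Sema6d, where 8.54% of all tested genes had one, and groups did not overlap for 16 higher and 6 lower genes, where 13% and 10.2% of all tested genes had this. The differences of the 5 genes with the smallest p were 0.56 for Efna3, 0.55 for Sema6d, 0.52 for Robo2, 0.50 for Epha6 and 0.47 for Plxna2 on the log2 scale. Of the 6 mitral and tufted cell markers, clean air mouse 2 had the lowest clean air value for Reln (18.65 RPKM against 41.09 and 39.76 RPKM) and Slc17a7, the highest for Tbx21 (20.13 RPKM against 15.72 and 16.52 RPKM), and lay between the other clean air mice for Eomes, Doc2g and Pcdh21. The part of this mouse's cell makeup or RNA in the result was not tested.

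**Figure D3:**
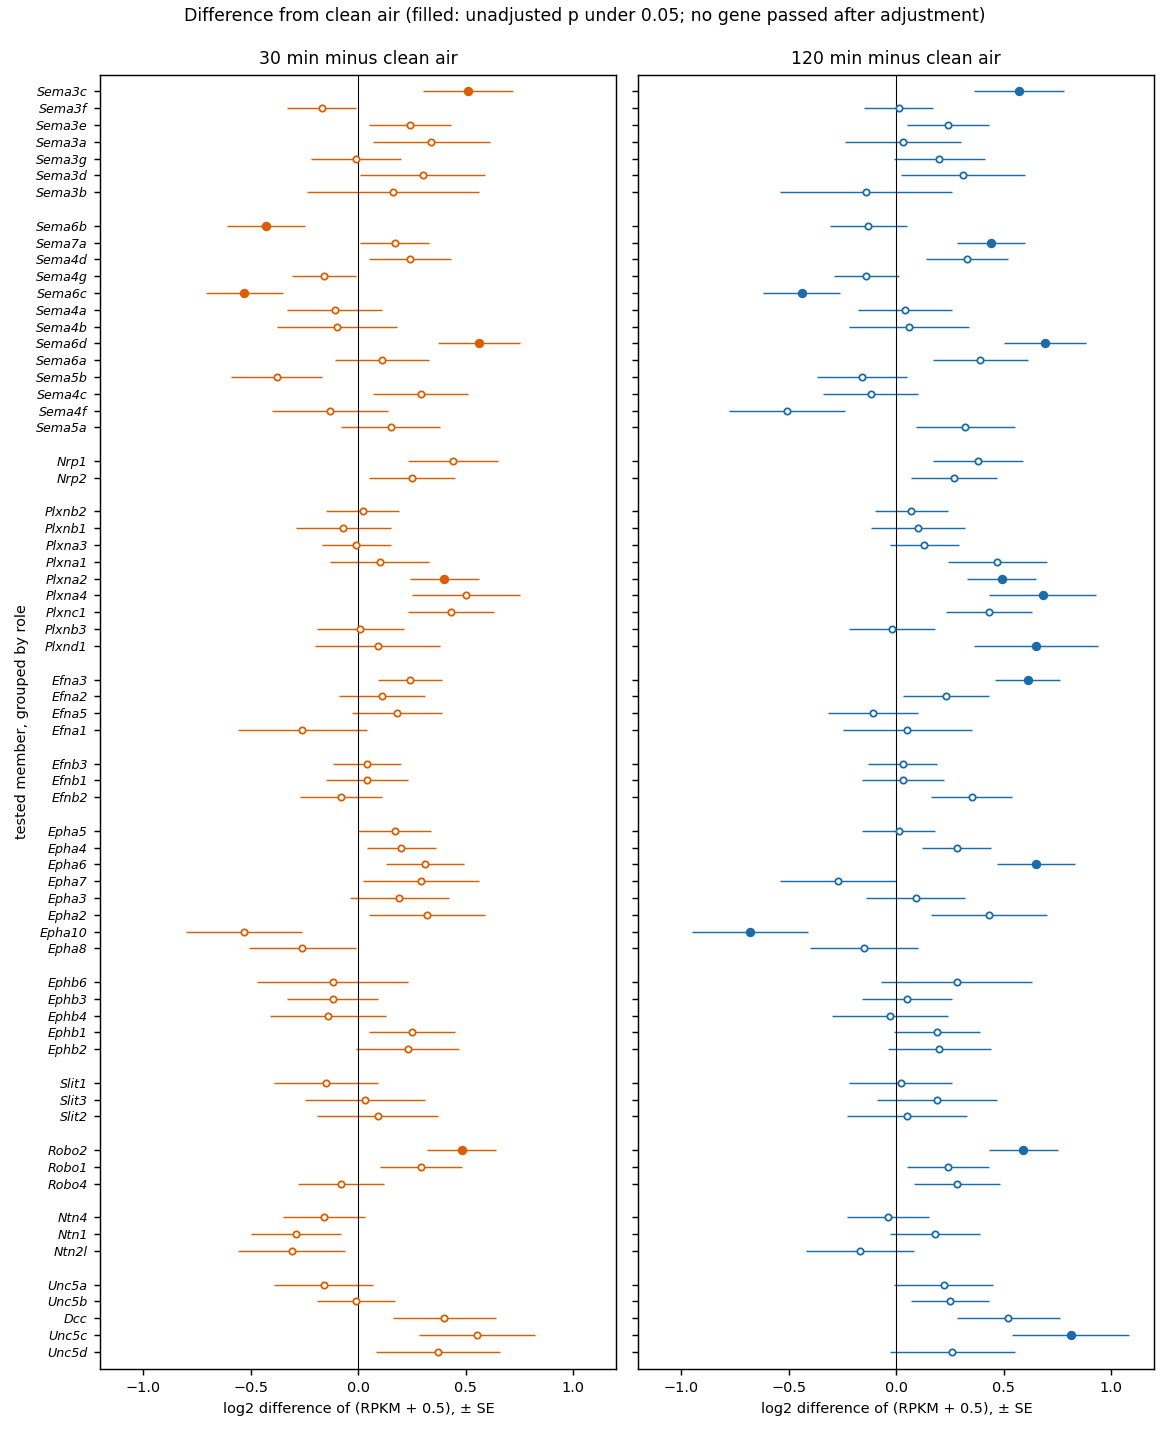
Log2 difference of (RPKM + 0.5) from clean air for the 65 tested guidance genes at 30 min (left) and 120 min (right), with bars of 1 SE from the fit, grouped by role. Filled points have an unadjusted p under 0.05, 6 at 30 min and 12 at 120 min, and both panels share the same clean air mice.

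Between 30 and 120 min, none of the guidance genes passed, beside 0.0782% of all tested genes. Efna3, Ntn1 and Efnb2, all higher at 120 min, had an unadjusted p under 0.05 (4.62%), as did 3.36% of all tested genes. The median log2 difference was 0.11, and -0.03 over all tested genes. It was 0.06 without 120 min mouse 3 and 0.07 without 30 min mouse 3. The 3 genes with an unadjusted p under 0.05 became 0 without 30 min mouse 2, without 30 min mouse 3 or without 120 min mouse 3 (limma), and 1 without 120 min mouse 1. Over all alternative fits described below, 258 to 854 of all tested genes had such a p, against 430 in the main fit. This comparison does not use the clean air mice. By the moderated F test over the 3 groups no guidance gene passed, beside 0.164% of all tested genes, and 8 had an unadjusted p under 0.05, where 6.64% of all tested genes had. These were Efna3, Sema6d, Robo2, Epha6, Plxna2, Unc5c, Sema6c and Sema3c, with adjusted p of 0.566 or more. By the F test 4 guidance genes had an unadjusted p under 0.05 without clean air mouse 2 or 120 min mouse 1, and 13 without clean air mouse 1. The share of all tested genes in these refits is not available here, so these numbers have no background beside them.

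Summed over a role, the ephrin-A genes had 41.2 to 45.8 RPKM in clean air, 46.9 to 49.4 RPKM at 30 min and 55.1 to 68.2 RPKM at 120 min, with no overlap between the groups. Robo receptors had 25.2 to 32.9, 36.5 to 38.9 and 37.6 to 44.7 RPKM, and only the exposed groups overlapped. Efna3 made up 71.1% of the ephrin-A sum and Robo2 65.3% of the Robo sum. These sums thus largely restate those single genes and do not show a rise of the whole role. The neuropilin sums were narrowly apart between clean air (6.7 to 10.2 RPKM) and 30 min (10.6 to 11.5 RPKM), as were the EphA sums (46.7 to 50.6 and 51.3 to 59.3 RPKM). Nrp1 made up 71.3% of the neuropilin sum and Epha5 46.8% of the EphA sum, and each of these genes alone overlapped clean air at 30 min. The class 3 semaphorin sums were apart between clean air (35.9 to 46.7 RPKM) and 120 min (48 to 49.7 RPKM). The class 4 to 7 semaphorins, the largest sum, had 236.2 to 310.4 RPKM in clean air, 222.8 to 249.9 RPKM at 30 min and 248.9 to 297.2 RPKM at 120 min. Ephrin-B, EphB, Slit, netrin, plexin, and Unc5 and Dcc sums overlapped in every pair of groups. The plexin sum of clean air mouse 2, 71.3 RPKM, was below all other mice. With that mouse left out, the 30 min sums of the class 4 to 7 semaphorins, EphB receptors and netrins were below all clean air sums. It had the lowest clean air sum in each of these roles, and leaving out a mouse can add such separations but not remove them.

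**Figure D4:**
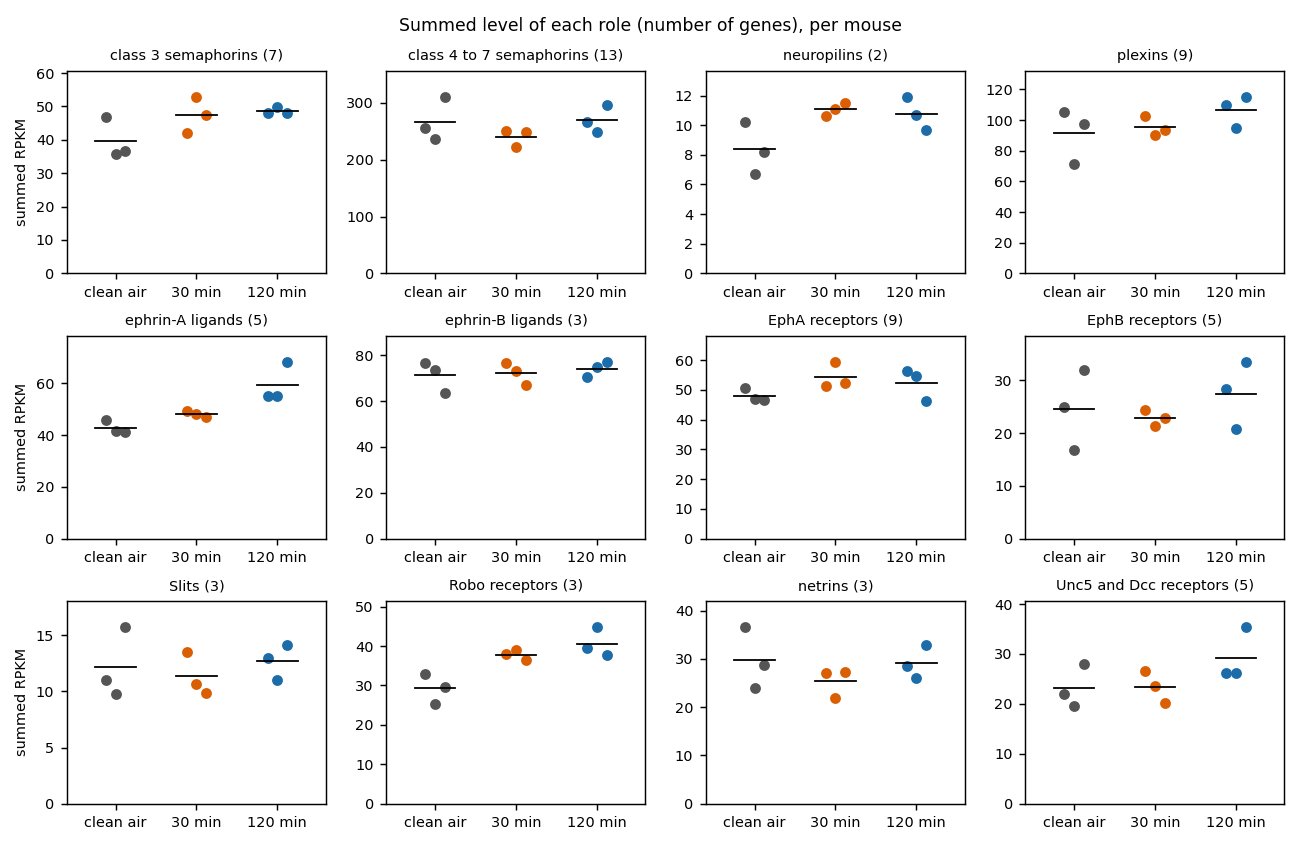
Summed RPKM of the genes of each of 12 roles (number of genes in brackets) in single mice by group, with the mean as a black bar and axes from 0. The ephrin-A sums of the 3 groups are apart, and the Robo sums of all 6 exposed mice are above clean air. Efna3 made up 71.1% of the ephrin-A sum and Robo2 65.3% of the Robo sum.

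Genes that work with the guidance receptors were taken from 5 lists, and none of them passed in any comparison. Of 13 tested co-receptors and adhesion partners, 2 had an unadjusted p under 0.05 at 30 min and 4 at 120 min, with median log2 differences from clean air of 0.2 and 0.35. Of 16 tested kinases and adaptors there were 1 and 3 (medians 0.15 and 0.12), and of 13 tested cytoskeletal effectors 1 and 3 (medians 0.1 and 0.05). All of these had higher means than clean air. Over all tested genes the shares were 5.92% and 9.57% and the medians 0.08 and 0.03. Without clean air mouse 2 the co-receptors and adhesion partners held 1 such gene at each time (medians 0.08 and 0.19), the cytoskeletal effectors 2 (medians 0.05 and 0), and the kinases and adaptors 1 and 2 higher with 1 lower at each time (medians 0.12 and 0.08). The 6 tested further cues and the 3 tested shedding proteases held 0 at either time, and between 30 and 120 min 0 genes of the 5 lists had such a p. Nrcam, an adhesion molecule that partners with neuropilin 2, had 37.23, 29.63 and 29.8 RPKM with clean air, 41.49, 50.57 and 46.49 RPKM at 30 min and 49.27, 52.77 and 44.87 RPKM at 120 min, with every exposed mouse above clean air. Its log2 differences were 0.52 ± 0.16 and 0.60 ± 0.16 (adjusted p = 0.738 and 0.339). Gsk3b, a kinase that acts on cytoskeletal proteins downstream of semaphorins, had 26.16, 16.76 and 23.76 RPKM in clean air and, in the exposed mice, 31.28 to 50.13 RPKM, with a log2 difference at 120 min of 0.91 ± 0.22 (adjusted p = 0.339). Dcx, a microtubule protein of migrating neuroblasts, had 12.57 to 18.18 RPKM in clean air and, in the exposed mice, 17.93 to 26.84 RPKM, overlapping only at 120 min, with log2 differences of 0.72 ± 0.20 and 0.61 ± 0.20 (adjusted p = 0.731 and 0.368). Clean air mouse 2 was the lowest mouse for Nrcam, Gsk3b and Dcx, and without it the differences at 120 min were 0.55 ± 0.17, 0.73 ± 0.21 and 0.51 ± 0.22.

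Cell type markers were set beside these values. No tested marker of the 11 lists passed in either comparison with clean air, and each of the defining genes found was above 0 in at least 1 mouse. The 6 migrating neuroblast markers had a summed level of 600 to 673 RPKM in clean air, 615 to 697 RPKM at 30 min and 654 to 755 RPKM at 120 min. Of them 5 were above clean air at 120 min, with a median log2 difference of 0.17. Tubb3, with a mean of 429 RPKM, held most of these sums, while Dcx had a mean of 20.4 RPKM. The 6 mitral and tufted cell markers found had sums of 1040 to 1440 RPKM in clean air, 1030 to 1190 RPKM at 30 min and 1150 to 1220 RPKM at 120 min, with 4 of 6 higher at 120 min and a median log2 difference of 0.42. Endothelial and mural cell markers had 106 to 110 RPKM in clean air, 78.3 to 112 RPKM at 30 min and 86.2 to 102 RPKM at 120 min. Cldn5 held most of these sums, while 5 of the 6 markers were higher than clean air at 30 min (median log2 difference 0.41) and 4 of 6 at 120 min (0.19). The remaining lists had median log2 differences from clean air of 0.02 to 0.29 at 30 min and -0.07 to 0.21 at 120 min. Ensheathing cells were lowest and astrocytes highest at both times. All these marker values include clean air mouse 2. The part of cell makeup in the guidance gene values was not tested.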

How the data were processed

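RNA from the olfactory bulbs of 9 mice, 3 per group, was measured by paired-end sequencing. The submitters' processing notes name Bowtie and the mm9 build, per the labels. Gene models, counting rule and strand use were not given in the sources here. The deposited values are RPKM made by the authors, with 2 decimals, and were used without further scaling. Columns were matched to mice by the codes in the sample descriptions.

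Depth was recovered from 1997 annotated RNAs under 200 nt, whose RPKM are multiples of that of 1 counted read. With lengths 34 nt shorter than annotated, 86.4% to 93.9% of multiples were whole within 0.05 per library, against at most 28.4% with full lengths. The floor of 3 counts covers counting error only.

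The 12780 genes averaging 1 RPKM or more were analysed as log2(RPKM + 0.5) by limma (version 3.58.1, R 4.3.3, eBayes with a trend), in 1 fit over 3 groups with 6 residual degrees of freedom. Tests were two-sided, with Benjamini-Hochberg adjustment over all tested genes within a comparison, and a gene passed at an adjusted p under 0.05. A log2 difference understates that of low genes because of the 0.5 added. The fit was tested on simulated data. Positions and promoters came from RefSeq and overlaps from GENCODE M21, both on a later build than mm9 and matched by symbol or identifier.

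Values per mouse are given for the highest gene of each role and for the 5 smallest p in each comparison. Other genes were named after their values were seen. The guidance genes, the lists and the tests were chosen with earlier results of these data known. Of the pathway gene lists, 1 is not reported here.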

Additional observations from a re-analysis of the deposited data

How the results depend on the processing

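No guidance gene passed under any of the 18 alternatives (17 for the F test): pseudocounts of 0.1 and 1, no filter or a mean of at least 5 RPKM, trimmed mean of M-values or median-of-ratios scaling, no trend, only the 6 libraries compared, the mouse number as a replicate block, and each mouse left out. Their smallest adjusted p was 0.314 at 30 min, 0.162 at 120 min, 0.723 between the time points and 0.303 by F. The 15 differences chosen by p kept their sign in all 267 refits, with Epha7 at -0.34 and Plxnd1 at 0.36 between the time points without 120 min mouse 3. They were chosen for small p in the same mice that the refits use, so a kept sign was largely fixed by that choice. The median over guidance genes was 0.01 to 0.15 at 30 min, 0.08 to 0.26 at 120 min and 0.06 to 0.15 between the time points. Both scalings gave 0.04 at 30 min and 0.15 or 0.16 at 120 min, with all tested genes at 0.01 to 0.02 and -0.01. Over all tested genes at 120 min, 11 passed, 7 with a mean of at least 5 RPKM, 2 with only the 6 libraries compared, and 0 to 11 by limma with a mouse left out (6 when clean air mouse 1 was left out, 3 for mouse 1 or mouse 2 of the 120 min group, and 0 for clean air mouse 2 or 120 min mouse 3, these last with 1092 and 855 genes at an unadjusted p under 0.05). Without clean air mouse 2, groups with lower values than clean air did not overlap for 11 guidance genes at 30 min and 6 at 120 min, with 9.89% and 10.2% of all tested genes.

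The titles give the 3 groups the same mouse numbers, and the labels name no shared litter or day. The codes in the sample descriptions agree between the exposed groups, but in clean air they differ from these except for mouse 1. The shared numbers of the other clean air mice thus rest on the titles alone. Deviations of same-numbered mice correlated at 0.081 to 0.444, over 0.1 in 7 of 9 pairs, and in all 18 combinations of a mouse and another group the highest correlation was with its own number. With the replicate block 0 guidance genes passed in each comparison, and 11, 16 and 7 had an unadjusted p under 0.05 (limma), against 6, 12 and 3. Over all 12780 tested genes such a p was also more frequent, in 1396, 1910 and 854 genes against 756, 1223 and 430. Of all tested genes 22, 11 and 10 passed, against 18, 11 and 10. Shallow libraries of 7153000 to 10500000 reads limit genes near 1 RPKM such as Slit2, Sema3b and Epha8.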

Other observations

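The guidance genes differed in how much they varied between mice. The median ratio of the highest to the lowest of 9 mice was 1.87 over the tested guidance genes and 1.95 over all tested genes. Plxna3, a receptor for class 3 semaphorins, was steadiest with a ratio of 1.27 (9.77 to 12.43 RPKM), followed by Sema4g and Plxnb3 with 1.36 each. Sema3b, Unc5c, Epha10 and Plxnd1 had ratios of 4.54, 3.73, 3.58 and 3.12, and all 4 had means under 4 RPKM.

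The low values of clean air mouse 2 were spread over most roles: it held the lowest clean air value in 3 of 3 netrins, 3 of 3 Robo receptors, 2 of 2 neuropilins, 4 of 5 EphB receptors, 4 of 5 Unc5 and Dcc receptors, 9 of 13 class 4 to 7 semaphorins and 6 of 9 plexins. In class 3 semaphorins it did so for 2 of 7 and in Slits for 1 of 3. Clean air mouse 3, the deepest library, held the lowest value of 42.3% of all tested genes and of 21.5% of the guidance genes.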
